A study of Mus musculus with 61 samples.

Results

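Genes that a published map of mouse embryonic stem (ES) cells ties to a single enhancer are described here through their promoters. The members are the distinct start sites of every gene that has exactly 1 enhancer position in the deposited accessibility table. They number 1592 promoters of 1528 genes, out of 5513 promoters of 5154 genes, and they use 1218 of the 14265 distinct enhancers. For comparison, 466 genes had 10 or more enhancers, with 537 promoters and 5112 enhancers. The choice rests on positions and not on any measured value.

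The cells were reprogramming intermediates from mouse embryonic fibroblasts of E13.5 embryos, strain Black6-129X1/SvJ, genotype Col1a1::tetOP-OKSM ; R26-M2rtTA. Doxycycline at 2 µg/ml switches on OKSM (Oct4, Klf4, Sox2 and Myc) in all groups, in ES cell medium with serum, LIF and ascorbate, and all libraries were taken at day 3. Accessibility was measured by Sono-seq, which sequences DNA freed by sonication of cross-linked chromatin, in 3 libraries labelled CAF-1 knockdown and 3 labelled Renilla control knockdown. The table gives 1 CAF-1 value and 1 Renilla value for each region. Sox2 was mapped by chromatin immunoprecipitation with 1 library and 1 input for each of 3 hairpins, namely Renilla, Chaf1a.166 and Chaf1a.2122. Both Chaf1a hairpins target the large subunit of CAF-1. The Sono-seq labels do not name the CAF-1 hairpin, and nothing here checks how far Chaf1a fell. The enhancer map comes from ES cells, whereas the values come from fibroblast-derived cells, and no cell type marker could be read from these files. Sequencing depth is unknown for both assays. With no replicate values, every comparison below is a description, and intervals (95%) cover counting error only and take neighbouring regions as independent.

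CAF-1 is the histone chaperone that places new nucleosomes on DNA as it is copied. An enhancer is a stretch of DNA, often far from a gene, where bound factors raise transcription from the gene's promoter. Genes of cell identity commonly have many enhancers, and genes that most cells use commonly have few. Sox2, a factor of the HMG-box family, binds short motifs with the core CATTGT, which reads ACAATG on the other strand, also on DNA wrapped in nucleosomes.

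The promoters of 4 members are printed first, because a Sox2 position of each of the 3 lists lay within 250 bp of the start and the letters CATTGT or ACAATG stand in the same window. They are the best 4 by Renilla Sox2 score of 11 such members with a single RefSeq promoter entry. Each runs 5′ to 3′ along the gene's strand, from 250 bases before to 50 after the RefSeq start (GRCm38.p6). Capitals mark the SOX core and the GC box, which is GGGCGG or CCGCCC. C2cd3 (chr7:100371983-100372282, plus strand), which encodes a centriole protein, adjoins Ppme1 (chr7:100371847-100372146, minus strand), which encodes a demethylating enzyme of protein phosphatase PP2A. The other two belong to 4632427E13Rik (chr7:92741410-92741709, minus strand) and to Bet1 (chr6:4086881-4087180, minus strand), which encodes a SNARE protein of vesicle transport.
C2cd3: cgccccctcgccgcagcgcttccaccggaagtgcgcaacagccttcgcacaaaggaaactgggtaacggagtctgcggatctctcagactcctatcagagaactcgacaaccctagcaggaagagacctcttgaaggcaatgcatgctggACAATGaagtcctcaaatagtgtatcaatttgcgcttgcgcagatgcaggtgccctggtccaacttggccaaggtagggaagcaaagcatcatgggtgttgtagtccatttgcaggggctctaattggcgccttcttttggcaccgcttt
Ppme1: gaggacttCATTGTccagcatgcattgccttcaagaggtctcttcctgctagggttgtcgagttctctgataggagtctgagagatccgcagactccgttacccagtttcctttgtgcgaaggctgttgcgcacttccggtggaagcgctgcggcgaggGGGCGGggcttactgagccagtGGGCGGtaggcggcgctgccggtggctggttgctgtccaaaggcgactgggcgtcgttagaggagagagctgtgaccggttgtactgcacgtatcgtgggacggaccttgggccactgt
4632427E13Rik: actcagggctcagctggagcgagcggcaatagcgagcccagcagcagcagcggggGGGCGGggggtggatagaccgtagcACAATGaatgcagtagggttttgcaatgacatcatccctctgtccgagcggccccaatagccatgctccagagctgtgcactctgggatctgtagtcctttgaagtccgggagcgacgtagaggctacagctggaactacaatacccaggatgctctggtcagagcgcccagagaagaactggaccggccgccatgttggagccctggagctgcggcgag
Bet1: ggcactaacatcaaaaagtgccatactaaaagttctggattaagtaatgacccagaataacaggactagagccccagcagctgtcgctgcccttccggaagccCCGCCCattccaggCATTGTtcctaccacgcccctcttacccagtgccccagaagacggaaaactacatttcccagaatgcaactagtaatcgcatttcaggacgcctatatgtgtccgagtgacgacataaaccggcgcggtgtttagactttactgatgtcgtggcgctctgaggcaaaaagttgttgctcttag

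In C2cd3 the core runs from base -100 to base -95, and the Sox2 positions lay at -94 (Renilla), -96 (Chaf1a.166) and -97 (Chaf1a.2122) from its mm9 start at 107520742 on chromosome 7. Ppme1 holds the same letters on its own strand at -242 to -237, with the same Sox2 positions at -242, -240 and -239 from its start at 107520406. The called positions and the core therefore stood within a few bases of each other in all 3 lists. Starts were taken from mm9 for Sox2 and from GRCm38.p6 for the letters, so an offset of a few bases between annotations is possible. At Bet1 the core at -133 to -128 stood near the Renilla and Chaf1a.2122 positions (-136 and -138), and the Chaf1a.166 position was at -167. At 4632427E13Rik the core at -170 to -165 was flanked by positions at -187 (Renilla), -152 (Chaf1a.2122) and -111 (Chaf1a.166). At the neighbouring starts of C2cd3 and Ppme1, which are close to one measurement, the CAF-1 value was the lower. C2cd3 had a CAF-1 value of 0.101 and a Renilla value of 0.131 (log2 ratio -0.37), and Ppme1 had 0.103 and 0.131 (-0.35). 4632427E13Rik had 0.141 and 0.161 (-0.19), and Bet1 had 0.131 and 0.123 (0.09).

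Another promoter is shown because its window lacks the exact SOX core. Pde12 (chr14:26669797-26670096, minus strand), which encodes an enzyme that degrades oligoadenylates, had the best Renilla Sox2 score among members with a position of every list within 250 bp and no CATTGT or ACAATG in the window.
Pde12: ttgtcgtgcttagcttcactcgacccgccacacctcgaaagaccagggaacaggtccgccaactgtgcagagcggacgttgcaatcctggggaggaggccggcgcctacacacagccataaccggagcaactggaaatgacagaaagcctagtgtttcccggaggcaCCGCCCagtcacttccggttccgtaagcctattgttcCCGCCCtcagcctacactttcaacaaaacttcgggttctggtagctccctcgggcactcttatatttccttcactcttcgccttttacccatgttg
Its Sox2 positions lay 35, 54 and 46 bp from the start in the Renilla, Chaf1a.166 and Chaf1a.2122 lists. The authors' scores for them were 72.8, 79.7 and 68.0, against list medians of 21.7, 23.7 and 20.0. Its Sono-seq values were 0.145 in CAF-1 and 0.166 in Renilla. The missing letters say only that this exact core is not in this window. Near matches were not searched, and the window does hold the similar letters tattgt.

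Over all members with a single RefSeq promoter entry, the SOX core was more common where Sox2 lay at the start. It stood in 11 of 34 windows with a position of all 3 lists within 250 bp (32.4%, Clopper-Pearson 17.4 to 50.5). It stood in 38 of 634 windows with no position of any list within 10 kb (5.99%, 4.28 to 8.13), and in 72 of 986 of such members overall (7.30%). The intervals of the first pair do not overlap. They take windows as independent, although C2cd3 and Ppme1, both among the 11, share the same core and the same Sox2 positions. Both strands were searched, and a match is a description of letters, not a shown binding site.

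The promoters of single-enhancer genes were rich in CpG. RefSeq entries existed for 1227 of the 1528 genes (80.3%) and gave 1517 windows of 300 bases, which were set beside all 32851 windows of the RefSeq table. The median ratio of observed to expected CpG was 0.783 (0.772 to 0.797) against 0.384, and 75.5% of member windows reached 0.6 against 35.8%. The GC box, a site of Sp1-family factors, stood in 65.9% (63.4 to 68.2) against 35.7% of all windows. The E box CACGTG, a site of Myc-family factors, stood in 10.3% (8.86 to 12.0) against 7.15%. The TATA element TATAAA was rarer, at 7.05% (5.82 to 8.46) against 13.6%, and so was the SOX core, at 7.84% (6.54 to 9.31) against 12.6%. The octamer ATGCAAAT, bound by Oct-family factors, stood in 1.38% (0.859 to 2.11) against 1.74%, with the second share inside the interval of the first. Each motif was searched on both strands, and the RefSeq table includes the members and many genes outside the enhancer map. The same features were not set against genes with 10 or more enhancers, of which 79.8% had an entry, just under the minimum of 80% set for such comparisons.

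The single enhancer usually lay farther from its promoter than the nearest enhancer of other genes. The median distance was 14690 bp (quartiles 7116 and 35150), and it ran from 8 to 975935 bp. For genes with 10 or more enhancers the nearest was a median of 6587 bp away. Within 10 kb lay the enhancer of 574 members (36.1%), against 70.0% of promoters with 10 or more. In the other classes the nearest of several enhancers was taken, so the distances are not of one kind. A shorter distance with more enhancers is built into this comparison. The plot of these distances shows the fall over the classes of enhancer number.

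**Figure D1:**
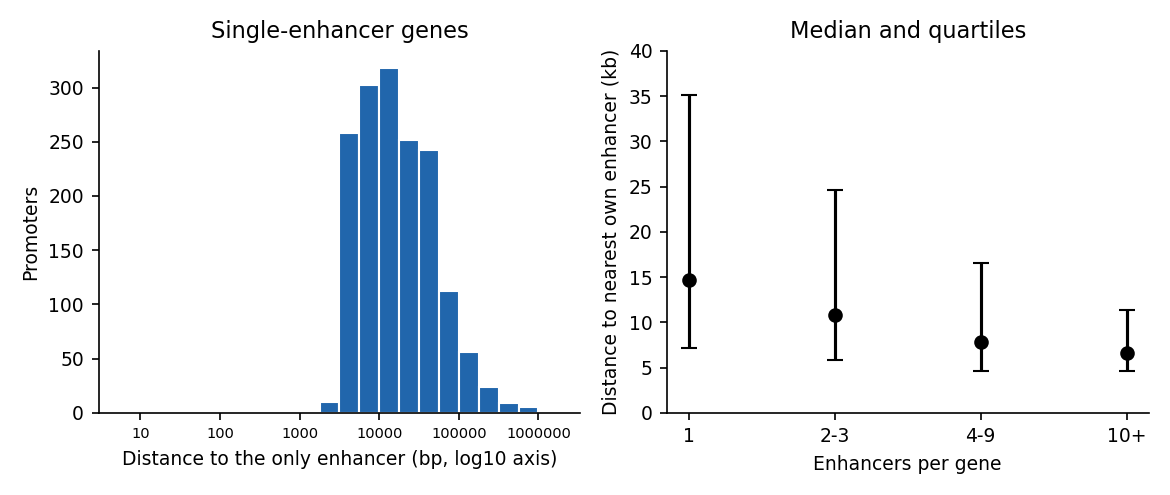
Left, number of member promoters by distance in bp to their only enhancer, on a log10 axis. Right, distance in kb from promoters to the nearest enhancer of their own gene by number of enhancers per gene, as median (points) and quartiles (bars). The median is 14690 bp for genes with 1 enhancer and 6587 bp for those with 10 or more.

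At the near end, the start of Mir210, a microRNA of the hypoxia response, stood 8 bp from its enhancer on chromosome 7. Both regions have identical values (0.199 in CAF-1 and 0.179 in Renilla), so they count as one measurement. Esp8, an exocrine-gland secreted peptide, and Trpc2, a channel of the vomeronasal organ, followed at 230 and 371 bp. At the far end stood Prrg1 on the X chromosome, with starts 975821 and 975935 bp from the enhancer, and Arap2, which regulates small GTPases, at 809384 bp. Distances of this size come from the published pairing and were not measured here.

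The enhancer of 780 of the 1528 genes (51.0%) was used by no other gene. For 491 genes (32.1%) it was shared with other single-enhancer genes only, for 254 (16.6%) with a gene of 2 to 9 enhancers, and for 3 with a gene of 10 or more. Up to 5 single-enhancer genes shared one enhancer. One such enhancer, on chromosome 11 at 29305600, had a CAF-1 value of 0.105 and a Renilla value of 0.0763 (log2 ratio 0.46). Its 5 promoters differed among themselves. Prdxdd1 had a log2 ratio of 0.44, and Ccdc88a, which encodes an actin-binding protein, had -0.33. Mtif2 (a mitochondrial translation factor), 1700034F02Rik and Rps27a (a ubiquitin and ribosomal protein fusion) lay at 0.01, 0.00 and 0.00. The other, on chromosome 2 at 126963400, had 0.152 and 0.143. Its promoters ran from 0.11 at Ncaph, a condensin subunit 3710 bp away, to -0.09 at Tmem127, 110310 bp away. 1810024B03Rik and Snrnp200, a spliceosome helicase, lay between them at 0.09 and 0.07, and Ciao1, which serves iron-sulphur protein assembly, at -0.04.

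Accessibility at member promoters was close to that of other promoters. The level, taken as the mean of the CAF-1 and Renilla values, had a median of 0.140 (0.139 to 0.142), with quartiles of 0.124 and 0.158. The unit of these values is not stated. Promoters with 10 or more enhancers had 0.144 (0.141 to 0.145). The ratio of medians was 0.978 (0.963 to 0.998), and on autosomes alone it was 0.988 (0.973 to 1.01), an interval that includes 1.

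Enhancers showed the larger difference. The single enhancers had a median level of 0.129 (0.128 to 0.131), against 0.143 (0.143 to 0.144) for enhancers of genes with 10 or more. The ratio was 0.902 (0.890 to 0.916), and 0.911 (0.898 to 0.930) on autosomes. The median climbed with enhancer number, from 0.129 to 0.135 for genes with 2 to 3, 0.138 for 4 to 9 and 0.143 for 10 or more. Just outside the rule, genes with exactly 2 enhancers had 0.135 at enhancers and 0.144 at promoters. An enhancer shared by genes of different classes counts in each of them.

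**Figure D2:**
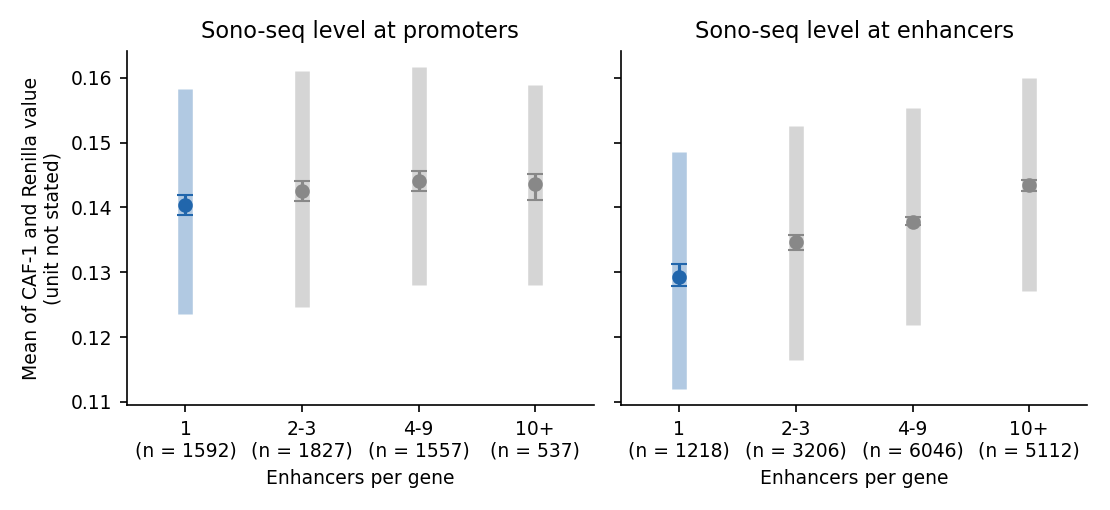
Sono-seq level (mean of the CAF-1 and Renilla values, unit not stated) at promoters and enhancers by number of enhancers per gene. Points are medians with 95% order-statistic intervals, shaded bars span the quartiles, and the axis does not start at 0. Enhancer medians go from 0.129 to 0.143, and promoter medians stay between 0.140 and 0.144.

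The members stood out on the X chromosome. Of 139 X-linked promoters in the table, 71 (51.1%) belonged to single-enhancer genes and none to genes with 10 or more. Across all chromosomes members made up 28.9% of promoters. The X-linked members had a median level of 0.0785 (0.0698 to 0.0845), against 0.142 (0.140 to 0.143) for the 1521 autosomal ones. The ratio was 0.554 (0.492 to 0.596). All 139 X-linked promoters together had 0.0823, so the low level was not particular to the members. The labels used here do not give the sex of the embryos. Several of the values below are also given for autosomes alone.

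**Figure D3:**
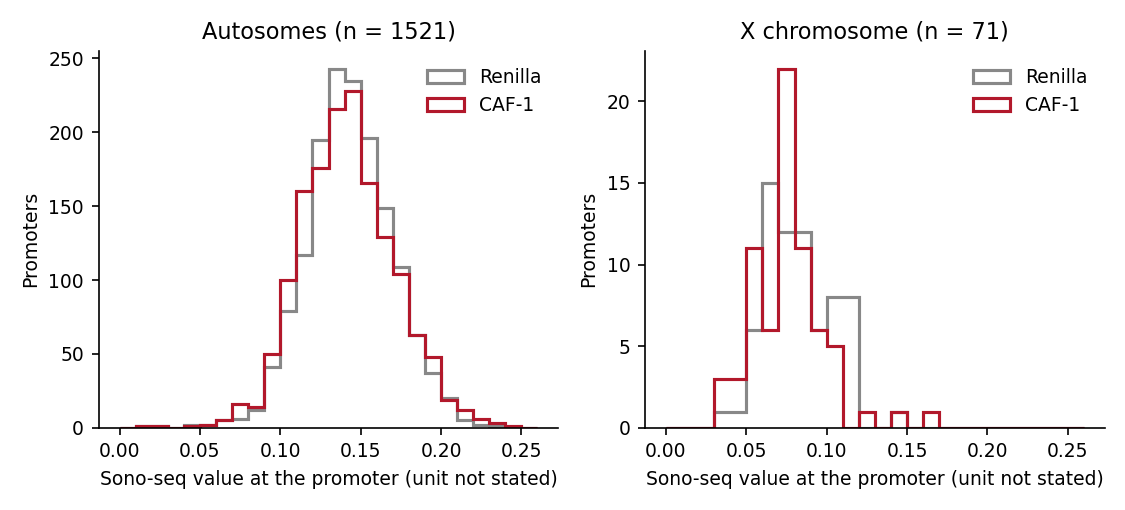
Histograms of the Sono-seq value (unit not stated) at member promoters on autosomes and on the X chromosome, for Renilla (grey) and CAF-1 (red), with bins of 0.01 and different count axes. Members with a level above 0.26 are left out. The X-linked promoters centre near 0.0785 and the autosomal ones near 0.142.

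By level, the members had 1 far outlier at the top. G530011O06Rik on the X chromosome, a non-coding gene, had 0.717 in CAF-1 and 0.710 in Renilla, far above the next, Bet1l (0.241 and 0.217), which encodes a SNARE protein. Mir23a, Rassf7 and Mtvr2 followed at levels of 0.229, 0.224 and 0.221. The lowest was Zfp808, a zinc finger gene, with 0.0115 and 0.0198. Hist1h4m (histone H4), Tmsb15b1, 3110007F17Rik and Fmr1nb followed, at levels of 0.0290, 0.0438, 0.0438 and 0.0451. Histone H4, thymosin and zinc finger genes have near-identical copies. The sources used here do not say how reads of such copies were placed, so these extremes are uncertain.

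Between the knockdown and the control, member promoters differed little as a group. The median value was 0.140 in CAF-1 and 0.141 in Renilla, and the log2 ratio of the CAF-1 to the Renilla value had a median of -0.0197 (-0.0324 to -0.00556). Of the 1592 promoters, 742 (46.6%) were higher in CAF-1, against 48.2% of all promoters and 45.8% of those with 10 or more enhancers. Promoters with 10 or more enhancers had a median of -0.0199 (-0.0435 to 0.000520). The difference of medians was 0.000215 (-0.0239 to 0.0277), so a shift beyond about 0.03 on the log2 scale lay outside the interval. At the single enhancers the median log2 ratio was 0.0209 (0.00977 to 0.0329), and at enhancers of genes with 10 or more it was 0.0316. That difference of -0.0106 (-0.0251 to 0.00449) also spans 0. Members above the median level of all promoters had a median of 0.00982 (-0.0101 to 0.0314), which spans 0. Autosomal promoters as a whole had 0.0108 above that level and -0.0274 up to it.

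Spread among the members was much wider than these medians, with an SD of 0.239 on the log2 scale. A threshold of 25% was used to count the tails. The CAF-1 value was at least 25% above the Renilla value at 107 members (6.72%), against 6.68% of all promoters. The Renilla value was at least 25% above the CAF-1 value, called lower here, at 173 (10.9%), against 8.98% of all promoters and 7.45% (40 of 537) of those with 10 or more enhancers. The excess of lower members over the latter was 3.42 percentage points (0.504 to 5.94). On autosomes it was 2.74 points (-0.165 to 5.26), and among autosomal promoters above the median level it was -0.149 (-4.04 to 2.98). The excess over the latter was thus not seen above the median level, and the difference between strata was not tested. Among autosomal promoters up to the median level, 106 of 780 members (13.6%) were lower in this sense, against 292 of all 2620 such promoters (11.1%) and 21 of 256 (8.20%) with 10 or more enhancers. On the X chromosome 18 of 71 members (25.4%) were lower and 4 were higher, and the median log2 ratio there was -0.124 (-0.226 to -0.0651). All X-linked promoters leaned the same way, with 30 of 139 (21.6%) lower, 12 higher and a median of -0.0735 (-0.149 to -0.0312).

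Single enhancers past the same threshold numbered 108 higher (8.87%, against 10.3% of all enhancers) and 104 lower (8.54%, against 6.58%). Enhancers of genes with 10 or more were lower in 5.52%, a difference of 3.02 percentage points (1.44 to 4.83). On autosomes it was 2.80 (1.21 to 4.63), and above the median enhancer level 1.76 (-0.128 to 4.30).

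The highest promoter log2 ratios among members above the median level were at genes of varied function. Mastl, which encodes a kinase that holds cells in mitosis, had 0.189 in CAF-1 and 0.125 in Renilla (0.60). Ndufa6, a subunit of respiratory complex I, had 0.217 and 0.148 (0.55). Robo4, an endothelial guidance receptor, had 0.198 and 0.135 (0.55). Zfp26, a zinc finger gene, and Bambi, a decoy receptor of TGF-beta signalling, followed at 0.52 and 0.51. None of these 5 had its enhancer past 25%, and their enhancer log2 ratios ran from -0.14 at Bambi to 0.18 at Mastl.

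Among the same members above the median level, the lowest log2 ratio was at the non-coding gene 2410006H16Rik on chromosome 11, with 0.115 in CAF-1 and 0.209 in Renilla (-0.87). The small nucleolar RNA genes Snord49b and Snord49a start within 1 kb of it, at 62416587 and 62416961, and had -0.76 and -0.74. These 3 starts are neighbours, so they are close to one observation. Their shared enhancer leaned the other way, with 0.128 and 0.104 (0.29). Zc3h4, a zinc finger protein that limits non-coding transcription, had 0.118 and 0.183 (-0.64), and 1700034H14Rik had 0.123 and 0.189 (-0.62). The promoters at the ends of this range are printed for Mastl (chr2:23155975-23156274, minus strand), Ndufa6 (chr15:82354242-82354541, minus strand), 2410006H16Rik (chr11:62602627-62602926, plus strand) and Zc3h4 (chr7:16400946-16401245, plus strand), in GRCm38.p6 and with capitals as before.
Mastl: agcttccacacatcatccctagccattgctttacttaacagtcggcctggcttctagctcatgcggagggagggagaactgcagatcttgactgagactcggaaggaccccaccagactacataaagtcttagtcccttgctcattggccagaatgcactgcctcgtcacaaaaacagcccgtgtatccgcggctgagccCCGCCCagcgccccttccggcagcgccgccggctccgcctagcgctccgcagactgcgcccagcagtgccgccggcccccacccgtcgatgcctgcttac
Ndufa6: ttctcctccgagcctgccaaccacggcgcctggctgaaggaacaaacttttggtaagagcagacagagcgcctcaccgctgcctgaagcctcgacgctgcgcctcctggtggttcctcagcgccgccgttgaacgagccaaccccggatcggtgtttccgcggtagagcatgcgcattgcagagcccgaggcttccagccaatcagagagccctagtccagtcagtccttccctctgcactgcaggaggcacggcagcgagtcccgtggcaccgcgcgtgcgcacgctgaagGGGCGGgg
2410006H16Rik: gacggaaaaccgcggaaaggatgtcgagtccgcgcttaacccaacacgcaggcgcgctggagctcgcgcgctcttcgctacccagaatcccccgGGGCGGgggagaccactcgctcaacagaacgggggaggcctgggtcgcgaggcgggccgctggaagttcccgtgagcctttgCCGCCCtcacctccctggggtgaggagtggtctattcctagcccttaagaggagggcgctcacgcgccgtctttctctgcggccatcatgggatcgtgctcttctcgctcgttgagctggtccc
Zc3h4: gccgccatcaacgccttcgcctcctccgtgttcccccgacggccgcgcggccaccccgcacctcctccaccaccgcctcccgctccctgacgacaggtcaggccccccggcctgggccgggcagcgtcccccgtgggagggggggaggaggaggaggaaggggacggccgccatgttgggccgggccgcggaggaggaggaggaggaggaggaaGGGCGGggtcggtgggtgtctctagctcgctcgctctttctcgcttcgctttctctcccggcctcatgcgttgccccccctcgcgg
None of the 4 windows holds the SOX core and each holds a GC box. Their GC content was 61.7%, 65.0%, 65.7% and 74.0%, in the order printed.

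Among enhancers above the median level, that of Gpa33, a surface antigen of gut epithelium, had the highest log2 ratio, with 0.182 in CAF-1 and 0.107 in Renilla (0.77). Those of Wdr48 (a cofactor of deubiquitinases), Rps21 (a ribosomal protein), Syngr3 (a synaptic vesicle protein) and Fadd (the adaptor of death receptors) lay between 0.54 and 0.55. The lowest was that of Nsun3, a methyltransferase of mitochondrial tRNA, with 0.0983 and 0.182 (-0.89). Those of Ctf1 (cardiotrophin), Ccdc124, Kctd11 and Brd9 (a subunit of a SWI/SNF remodelling complex) lay between -0.62 and -0.50. Of these 10 genes only Syngr3 had a promoter past 25% (0.36). Each enhancer is named here by a single gene, although some have others. That of Ctf1 is also the only enhancer of Orai3, whose promoter was past 25% lower (-0.51).

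A gene with a single enhancer allows its promoter to be paired with that enhancer without a choice. Over the 1592 pairs the log2 ratios were almost unrelated across regions (Pearson's r 0.0459, Spearman's rho 0.0377), and 817 pairs (51.3%) had the same sign. Levels went together more closely, with a rho of 0.439. Pairs share both conditions, and neighbouring pairs share enhancers, so no p is given. Pairs 1 to 5 kb apart had an r of 0.0893 (n = 223), those 5 to 20 kb apart 0.0583 (n = 717) and those 20 to 100 kb apart -0.0308 (n = 555). The 94 pairs over 100 kb apart had 0.242.

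**Figure D4:**
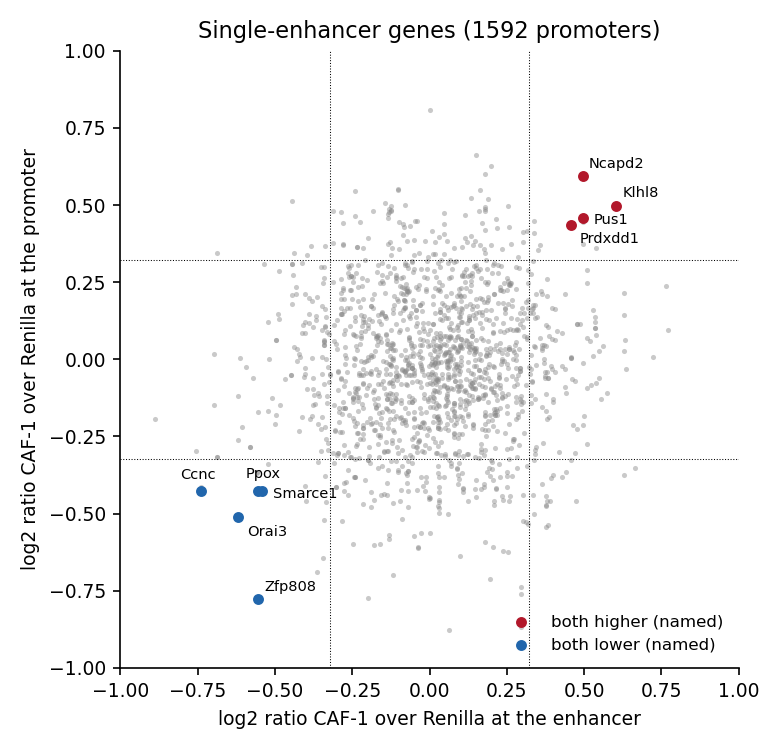
Log2 ratio of the CAF-1 over the Renilla value at each of 1592 member promoters against that at its only enhancer. Dotted lines mark 25% in either direction, and coloured points are the named genes with both regions past it. The cloud shows no slope (r 0.0459).

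Leaving aside 3 pairs within 1 kb, both regions were past 25% higher in 11 of 1589 pairs (0.692%, against 0.853% of all promoters with their nearest enhancer). Both were past 25% lower in 18 (1.13%, 0.673 to 1.78, against 0.763%), at 16 distinct enhancers. Of 536 promoters with 10 or more enhancers 9 pairs were higher and 0 were lower. For the count of 0, a limit of 3 counts in 536 is 0.560%, and the exact interval reaches 0.686%. The nearest of many enhancers is a different choice from an only enhancer, and it lies closer. On autosomes the members' counts were 11 and 16 of 1518 (0.725% and 1.05%), against 46 and 36 of 5368 (0.857% and 0.671%) among all promoters.

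Ncapd2, a condensin subunit, was the clearest pair of the higher kind with Sox2 at its start. Its promoter had 0.159 in CAF-1 and 0.105 in Renilla (0.59), and its enhancer 0.164 and 0.116 (0.49). Sox2 positions lay 12, 25 and 8 bp from its start in the Renilla, Chaf1a.166 and Chaf1a.2122 lists. Klhl8, an adaptor of ubiquitin ligases, had 0.50 at the promoter and 0.60 at the enhancer. Pus1, a pseudouridine synthase, had 0.46 and 0.45 at its neighbouring starts and 0.50 at the enhancer. Prdxdd1 had 0.44 and 0.46. None of the latter 3 genes had a Sox2 position within 10 kb of its start. The enhancer of Klhl8, at 104326900, had a Chaf1a.2122 position close by, at 104327573.

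Of the lower kind, Orai3, a calcium channel, had 0.121 in CAF-1 and 0.172 in Renilla at the promoter (-0.51), and 0.135 and 0.207 at the enhancer (-0.62). This enhancer is the one listed above for Ctf1. Smarce1, a subunit of SWI/SNF remodelling complexes, had 0.0986 and 0.133 (-0.43), with 0.0988 and 0.144 (-0.54) at the enhancer. Ccnc, which encodes cyclin C of the Mediator kinase module, had 0.115 and 0.154 (-0.43), with 0.0981 and 0.164 (-0.74). Ppox, an enzyme of haem synthesis, had -0.43 and -0.56. Zfp808 had -0.78 and -0.56, at the lowest level of all members. Smarce1 and Ccnc had Sox2 positions of all 3 lists within 10 kb of the start, and Orai3, Ppox and Zfp808 had none there. The enhancer of Ppox, at 173241900, had a Chaf1a.2122 position near it, at 173239689.

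Starts of one gene gave a measure of how local the values are. In 55 pairs of starts within 500 bp, the log2 ratios differed by a median of 0.00953. In 7 pairs over 500 and up to 2000 bp apart they differed by 0.130, and in 10 pairs farther apart by 0.214. The last value is a median difference of paired starts, which is not the same measure as the SD of 0.239 among all members. Near starts are repeats of one measurement.

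Sox2 lay near fewer single-enhancer promoters at a distance of 10 kb. In the Renilla list 396 members (24.9%) had a position within 10 kb, against 29.1% of all promoters and 35.9% (193 of 537) of those with 10 or more enhancers. In the Chaf1a.166 list these were 386 (24.2%), 28.4% and 36.5%. In the Chaf1a.2122 list they were 466 (29.3%), 33.2% and 37.2%. The differences from the 10-or-more class were -11.1 (-15.7 to -6.56), -12.3 (-16.9 to -7.74) and -7.97 (-12.7 to -3.38) percentage points. The order was the same in all 3 lists, and each list rests on 1 immunoprecipitate.

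At the start itself the members had no lower share. Within 500 bp a position stood at 118 members in the Renilla list (7.41%, against 7.62% of all promoters), 121 in the Chaf1a.166 list (7.60%, against 7.4%) and 147 in the Chaf1a.2122 list (9.23%, against 9.32%). Genes with 10 or more enhancers had 7.08%, 5.96% and 6.33%. The differences were 0.336 (-2.42 to 2.67), 1.64 (-0.982 to 3.85) and 2.90 (0.173 to 5.23) percentage points. Within 50 kb, by contrast, the members had 61.8%, 58.4% and 65.6%, against 66.7%, 66.0% and 70.6% of all promoters. The differences from genes with 10 or more enhancers were there -14.4, -17.6 and -12.6 points. The lower share of members thus appeared at 10 kb and beyond and not at the start.

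**Figure D5:**
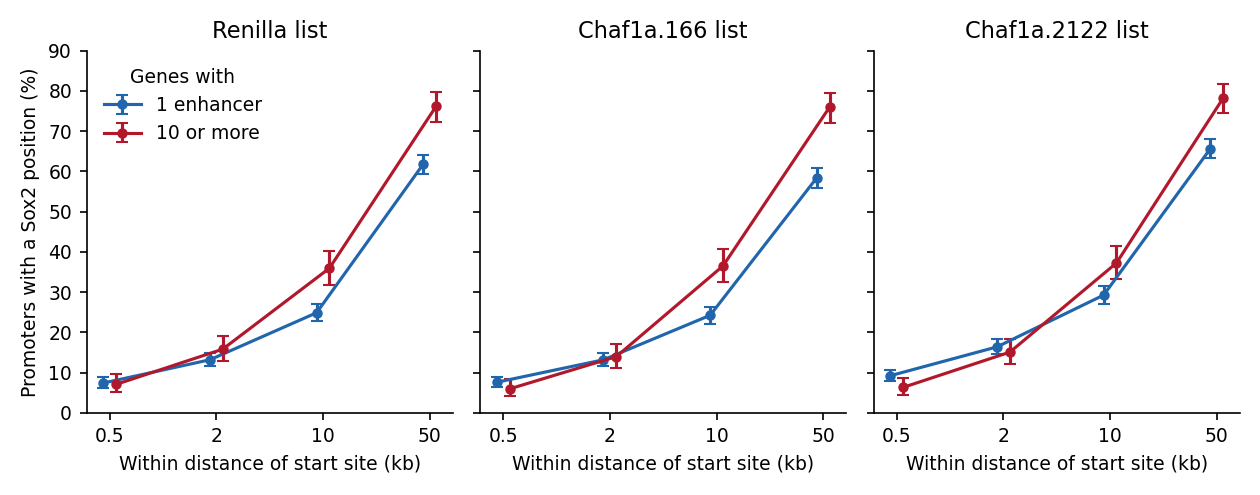
Percent of promoters with a Sox2 position within 0.5, 2, 10 and 50 kb of the start site, for genes with 1 enhancer (blue) and with 10 or more (red), in each Sox2 list. Bars are 95% Clopper-Pearson intervals. The classes differ by 0.336 to 2.90 percentage points at 0.5 kb and by -7.97 to -12.3 at 10 kb.

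The gap was also read by whether the nearest enhancer lay within 10 kb. Distances on either side of that limit were not matched between the classes. Among promoters whose nearest enhancer lay within 10 kb, members had 28.0%, 30.1% and 34.7% in the Renilla, Chaf1a.166 and Chaf1a.2122 lists, against 38.6%, 38.6% and 39.9%. The differences there were -10.5 (-16.6 to -4.40), -8.42 (-14.6 to -2.27) and -5.22 (-11.5 to 1.03) points, the last spanning 0. Members with a farther enhancer had 23.1%, 20.9% and 26.2%, against 29.8%, 31.7% and 31.1% of such promoters with 10 or more enhancers. At the enhancers themselves, a position within 500 bp stood at 30, 37 and 36 of the 1218 single enhancers (2.46%, 3.04% and 2.96%, against 3.2%, 3.33% and 3.65% of all enhancers). Enhancers of genes with 10 or more had 2.66%, 2.68% and 3.05%, inside the members' intervals. Within 10 kb of the enhancer it stood at 281, 289 and 331 (23.1%, 23.7% and 27.2%, against 27.9%, 27.4% and 30.6% of all enhancers), and enhancers of genes with 10 or more had 29.2%, 28.0% and 31.6%.

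As among all promoters, most members had no Sox2 position of any list near their start. No list had a position within 10 kb of 1000 members (62.8%, against 58.8% of all promoters). At least 1 list had one at 592 (37.2%, against 41.2% of all promoters). All 3 lists had one at only 268 of these 592 (16.8% of members, against 20.8% of all promoters and 27.7% of those with 10 or more enhancers). Both Chaf1a lists without Renilla held 48 (3.02%, against 2.90% of all promoters), and Renilla alone held 56 (3.52%, against 3.27%). The Chaf1a.2122 list alone held 104 (6.53%, against 6.08%) and is the longest, with 19319 positions against 17681 (Renilla) and 15888 (Chaf1a.166). Lack of a listed position means only that none passed that list's threshold, and Sox2 may still have been there.

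Among members with a Renilla Sox2 position within 1 kb of the start, those with the best Renilla scores were Otud7b, Dido1, Pde12 and Fgd4. At Otud7b, a deubiquitinase, they lay 520, 510 and 509 bp from the start, with scores of 231, 225 and 237 in the Renilla, Chaf1a.166 and Chaf1a.2122 lists. At Dido1, a chromatin reader, the scores were 174, 147 and 142, at 782, 775 and 790 bp. Their Sono-seq log2 ratios were -0.19 and 0.04. At Fgd4, an activator of the GTPase Cdc42, the Renilla list gave another position than the Chaf1a lists, 652 bp from the start against 85 and 91 bp.

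Members near Sox2 in both Chaf1a lists and not in Renilla were led by Zbed3, Tnfrsf12a (the TWEAK receptor), Slc30a9 (a zinc transporter), Fancg (a DNA repair protein) and Tomm7 (a subunit of mitochondrial import). At Tomm7 the positions were 107 and 133 bp from the start, with scores of 22.7 and 20.1, and the nearest Renilla position was 51281 bp away. Its Sono-seq values were 0.0985 in CAF-1 and 0.118 in Renilla. Members near Sox2 in Renilla alone were led by Nras, a small GTPase of growth signalling, Aox1 (an aldehyde oxidase), Abcd3 (a peroxisomal transporter), Edc4 (a decapping factor) and Mastl. At Nras the position was 119 bp from the start with a score of 22.6, and the Chaf1a lists came no nearer than 23019 bp. At Abcd3 the Chaf1a positions were just past the 10 kb limit, at 11400 bp (Chaf1a.166) and 11388 bp (Chaf1a.2122). The printed scores were near the medians of their lists.

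Sox2 and the Sono-seq ratio showed little relation. The 268 members with Sox2 of all 3 lists within 10 kb had a median log2 ratio of -0.0288 (-0.0578 to 0.0241), and the 1000 with none had -0.0136 (-0.0302 to 0.00569). The 48 of both Chaf1a lists without Renilla had -0.0673 (-0.187 to -0.00936), with 16 (33.3%) higher in CAF-1. Over all promoters this Sox2 pattern held 160, with a median of -0.0140 (-0.0593 to 0.0426) and 77 (48.1%) higher. The 47 members with Sox2 of every list within 250 bp had -0.0475 (-0.158 to 0.0603), with 21 higher. These intervals overlap one another.

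By gene function, the members were read through 12 fixed lists. Of all genes, 29.6% had a single enhancer. Among 33 pluripotency genes 4 (12.1%) had one, and 6 had 10 or more. Nanog, a core factor of pluripotency, had a CAF-1 value of 0.177 and a Renilla value of 0.201 (log2 ratio -0.18), with Sox2 positions of all 3 lists 4363 to 4519 bp from its start. Dppa4, a chromatin factor of early embryos, had 0.0731 and 0.0800 (-0.13), with 0.110 and 0.0899 (0.29) at its enhancer. Zfp42, a marker of ES cells, had 0.0758 and 0.0685 (0.15), with 0.0623 and 0.0759 (-0.28) at its enhancer. Spp1, a secreted matrix protein, had 0.123 and 0.120 (0.03). None of the 4 promoters was past 25%, and only Nanog had a Sox2 position within 10 kb. The levels of Dppa4 and Zfp42 were well under the members' lower quartile of 0.124.

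None of 3 fibroblast genes and 1 of 9 epithelial genes had a single enhancer. The latter was Esrp1, a splicing regulator of epithelia, with 0.148 in CAF-1 and 0.109 in Renilla (0.44) at the promoter and 0.17 at the enhancer. It was past 25% with no Sox2 position within 10 kb.

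Of 15 histone chaperone and replication genes 5 had a single enhancer, and none of their promoters was past 25%. Rbbp4, which encodes the small subunit of CAF-1, had 0.116 and 0.138 (-0.25), with Sox2 positions 125, 25 and 32 bp from its start in the Renilla, Chaf1a.166 and Chaf1a.2122 lists. Mcm3, a subunit of the replicative helicase, had 0.144 and 0.146 (-0.02), with positions 160, 137 and 165 bp away. Pcna, the clamp that brings CAF-1 to new DNA, had 0.123 and 0.125 (-0.02). Pole, a DNA polymerase subunit, had 0.138 and 0.128 (0.11), with 0.0942 and 0.119 (-0.34) at its enhancer. Atrx, an X-linked remodeller, had 0.0916 and 0.0886 (0.05).

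Larger lists of other gene families differed in how many genes had a single enhancer. They were 32 of 73 mitochondrial translation and respiration genes (43.8%), 47 of 114 zinc finger genes (41.2%) and 27 of 68 genes of RNA splicing and processing (39.7%). Cytosolic ribosomal proteins had 14 of 54 (25.9%) and solute carriers 23 of 93 (24.7%). Proteasome and ubiquitin genes (22 of 67), translation factors and tRNA synthetases (14 of 43) and non-coding RNA genes (26 of 86) lay near the whole table. The median promoter log2 ratios were 0.05 for the mitochondrial genes, with 5 past 25% higher and 3 lower of 32, and -0.10 for translation factors and tRNA synthetases, with 0 higher and 4 lower of 17 promoters. Proteasome and ubiquitin genes had 1 higher and 6 lower of 23, and non-coding RNA genes 0 higher and 5 lower of 26. Zinc finger genes had 4 of each among 50. Over all promoters 6.68% were past the threshold higher and 8.98% lower, and over all members 6.72% and 10.9%. The list medians stand beside -0.0197 for all members and -0.00925 for all promoters, and nothing particular to a list is read from them.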

How the data were processed

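Per the labels, Sono-seq had 3 libraries per condition and Sox2 had 1 immunoprecipitate and 1 input per hairpin, and 49 of 61 samples were not analysed here. The submitters' processing notes list mm9 as build, with BWA 0.7.8 and Bowtie as tools and no role for each. No source used here names the caller of Sox2 positions. The deposited Sono-seq values were treated as a score, since their unit and scaling are not stated, and no value was 0. Per the file headers, Sox2 positions carry the authors' score, E-value and false discovery rate (q-value). Per the file headers, they also carry the authors' enrichment ratio to input and a lower bound of it. Such values served only to describe, rank or filter positions within a list.

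With 1 value per condition the planned tests between libraries were replaced by descriptions. Enhancers of a gene were counted as distinct positions. In 136 rows, symbols turned into dates were restored through the RefSeq transcript. Of 5510 transcripts 5411 were in the RefSeq table. Intervals are from order statistics (medians), exact Clopper-Pearson (shares) and Newcombe's method (differences of shares). Differences and ratios of medians combine both intervals by squaring and adding. Python 3.11.15, pandas 2.3.3, NumPy 2.4.6, SciPy 1.17.1 and matplotlib 3.10.9 were used, and the counting was tested on simulated data.

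Members and gene lists were chosen with earlier results of these data known. Named genes are up to 5 at each end of promoter ratio, enhancer ratio (both above the median level of their kind) and level, up to 5 pairs past 25% in each direction, up to 5 by Sox2 score in 3 classes, the 3 nearest and 3 farthest enhancers, and the members of the 4 symbol lists. Where a start shared a gene with another, both count. The printed promoters, the shared enhancers and the split by the X chromosome were chosen after seeing the data.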

Additional observations from a re-analysis of the deposited data

How the results depend on the processing

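Of 101 values recomputed for 11 results, 73 stayed within the interval of the reported value and 23 moved out of it. The other 5 turned the sign of a result whose interval left out 0. The 73 are no measure of stability, because some settings changed nothing. Deposited symbols and leaving out shared promoters returned every value as reported. Scaling cannot change a difference of log2 ratios, and lists of equal length leave the shortest, Chaf1a.166, as it was. Scaling both conditions to the same median moved the members' median log2 ratio to -0.0391 at promoters and 0.00157 at enhancers. Above the median level of their kind, the members' promoter median was 0.00982, with an interval that spans 0, and the enhancer median was 0.0592, and the differences from genes with 10 or more enhancers were 0.0297 and 0.0134. Against genes with 2 or more enhancers, the Sox2 differences were -6.01 (Renilla) and -5.85 (Chaf1a.166) percentage points. On autosomes alone the members' median log2 ratio was -0.0156 at promoters and 0.0214 at enhancers. The Sox2 differences from genes with 10 or more enhancers were there -10.8 (Renilla), -11.9 (Chaf1a.166) and -7.40 (Chaf1a.2122) points.

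Distance moved the Sox2 results most. For the Renilla, Chaf1a.166 and Chaf1a.2122 lists in turn, the members' shares were 7.41%, 7.60% and 9.23% within 500 bp. Within 2 kb they were 13.2%, 13.2% and 16.4%, against 14.2%, 13.8% and 16.9% of all promoters. Within 50 kb they were 61.8%, 58.4% and 65.6%, against 66.7%, 66.0% and 70.6% of all promoters. The differences from 10 or more enhancers were 0.336, 1.64 and 2.90 points within 500 bp, so the sign turned in every list. Within 2 kb they were -2.64, -0.776 and 1.31, turned in the last. Within 50 kb the Chaf1a.166 difference was -17.6. An enrichment lower bound of at least 2 gave shares of 16.3%, 15.4% and 16.7%, and lists cut to 15888 positions gave 23.2% for Chaf1a.2122. The bound and the shorter list hold fewer positions by construction.

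Autosomes only, 500 bp, and the restriction to near enhancers were chosen after seeing the data. Joining enhancers within 1 kb, deposited symbols, adding 0.01, and comparison with 5 or more enhancers moved none of the results they were run on beyond its interval. No start is used by 2 genes, so leaving out shared promoters removed nothing. No paired analysis was possible because the table gives 1 value per condition and no replicate to leave out. Read depth is unknown, so how far it limits the Sox2 lists is unknown too.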
